A study of Gallus gallus with 40 samples.

Results

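HOX genes were measured in the chicken chorioallantoic membrane, the vascular membrane under the eggshell that forms where the allantois, an outgrowth of the hindgut, meets the chorion. The members were all genes that the annotation deposited with the data names HOXA, HOXB, HOXC or HOXD followed by digits, which gave 37 of the 26152 gene models in the expression table. They comprised 11 HOXA genes (chromosome 2), 10 HOXB genes (chromosome 27, 6151929 to 6290582), 8 HOXC genes (chromosome 33, 7539365 to 7663344) and 8 HOXD genes (chromosome 7, 16262309 to 16327333), in coordinates of the chicken genome build GRCg6a. HOX genes without such a name in that annotation were not analysed here.

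HOX genes encode homeodomain transcription factors that give cells their position along the body axis. Within each cluster the genes stand in the order in which they are switched on in the embryo, and genes at matching positions of the A, B, C and D clusters form a paralogue group; low group numbers mark the anterior end and high numbers the posterior end. In the mouse, Hoxa13 is expressed in the allantois, and its loss narrows the umbilical arteries.

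Whole membranes of Ross 308 broiler embryos, a fast-growing meat line, were collected on day 11 or day 15 of incubation from embryos of either sex. Each of the 4 groups held 10 libraries (day 11 females, day 11 males, day 15 females and day 15 males), each library carries a number of its own, taken here as its embryo's, sex was typed from neck tissue, and the eggs of all groups had been stored before incubation. Values were FPKM, reads or fragments (which of them the files do not settle; reads below stands for either) per kilobase of gene model and per M of them in the library, so that levels of different genes could be compared per length. The labels give no batch or day of dissection.

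From the steps of the FPKM values, each library held between 28.3 and 49.2 M reads, with a median of 35.4 M. Endothelial, stromal, epithelial and smooth muscle marker lists were detected in every library, whereas the 6 skeletal and cardiac muscle markers summed to 0.329 to 4.58 FPKM. Replicate 83 of the day 15 females stood apart in its HOX genes and in its markers. Averaged and printed female day changes of called members are therefore given with and without it, or its effect is stated. The same holds for the gene lists and most shares.

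Most HOX genes were expressed in the membrane, and the levels were led by HOXA13, HOXB7, HOXB9, HOXA9 and HOXA10. Of the 37 members, 29 had a mean of at least 1 FPKM over the 40 libraries and 15 of at least 10 FPKM. HOXA13, the most posterior HOXA gene and a factor of distal limb, hindgut and urogenital development in the mouse (chromosome 2, 32680060 to 32682168, minus strand), had the highest mean, 59.03 FPKM. HOXB7, a trunk-level gene (chromosome 27, 6207771 to 6211830, plus strand), followed at 55.0 FPKM, then HOXB9 at 42.6, HOXA9, a gene known from blood progenitors, at 38.9, and HOXA10, known from the uterus and the lumbar spine, at 36.4 FPKM. The order at the top differed between days. HOXA13 was the highest HOX gene in 20 of 20 libraries at day 11 and in 4 of 20 at day 15, where HOXB7 was highest in 15 of 20 and HOXA4 in 1, replicate 83 of the females.

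**Figure D1:**
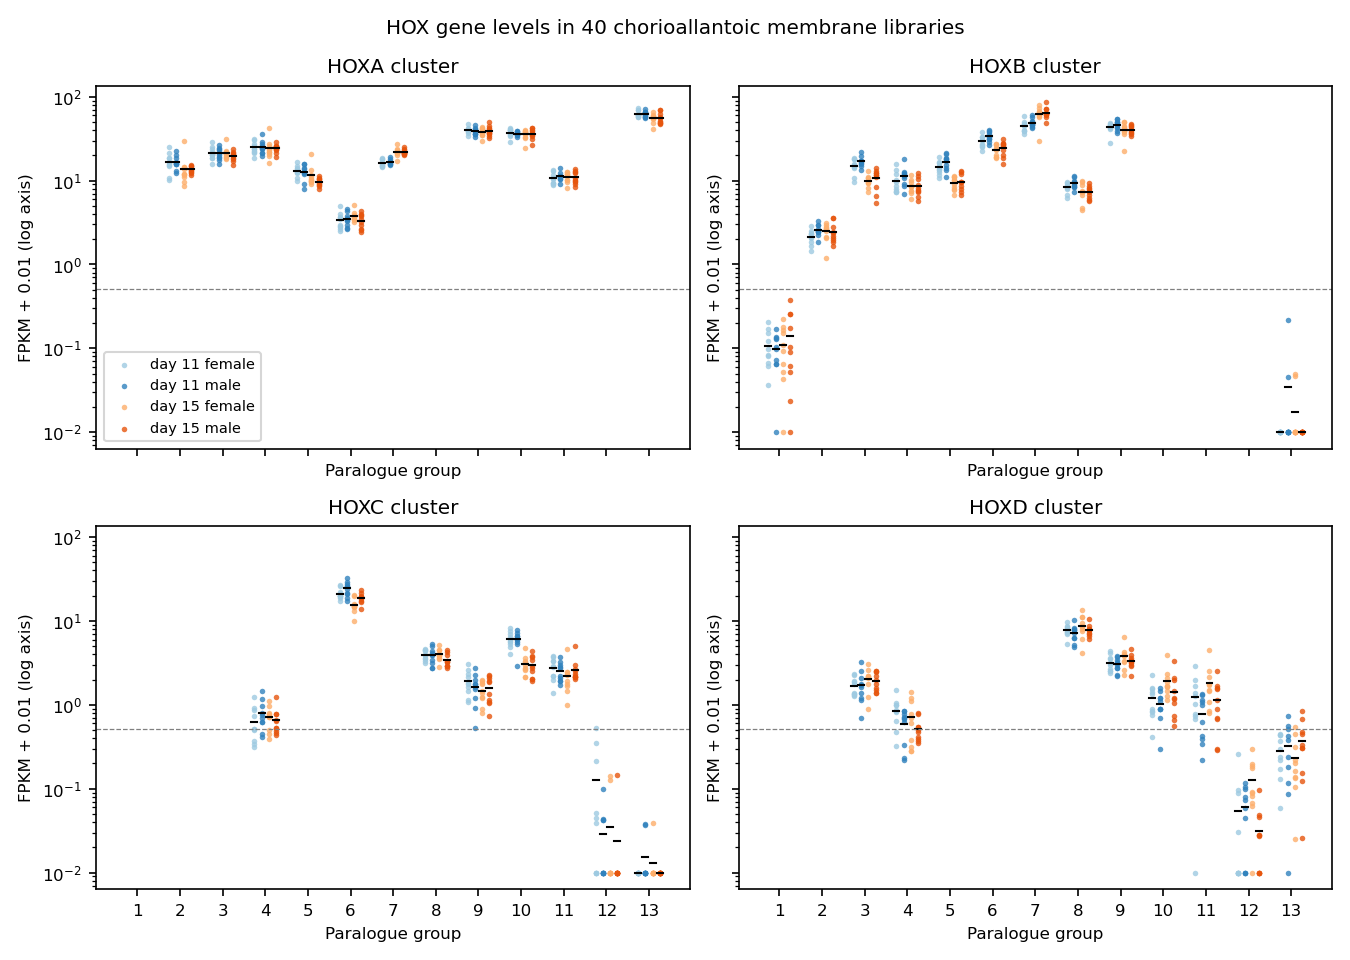
FPKM of 36 HOX genes in the 40 libraries (points, coloured by day and sex) with group means (black bars), by paralogue group, in 1 panel per cluster; the vertical axis is logarithmic after adding 0.01, and the dashed line marks the 0.5 FPKM used in the filter. All HOXA genes shown lie above 1 FPKM on average, while members of groups 12 and 13 of the B, C and D clusters lie below the line in most libraries.

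The remaining members of at least 10 FPKM were HOXB6 at 27.6, HOXA4 at 24.7, HOXA3, which patterns pharyngeal arches, at 20.9, HOXC6, a thoracic-level gene, at 19.9, HOXA7 at 19.2, HOXA2, which patterns the hindbrain and branchial arches, at 15.2, HOXB3 at 13.1, HOXB5 at 12.5, HOXA5, a gene of lung development, at 11.7, and HOXA11, a gene of the forearm and kidney, at 11.0 FPKM. Their coefficient of variation within groups was 9.24 to 27.1%, and the order changed with the day. HOXC6 was above HOXA7 in 20 of 20 libraries at day 11 (22.8 ± 4.37 against 16.5 ± 1.30 FPKM, SD, n = 20) and in 2 of 20 at day 15 (17.1 ± 3.24 against 21.9 ± 2.09 FPKM). HOXB3 and HOXB5 overlapped at both days, with HOXB3 the higher in 10 of 20 and 14 of 20 libraries. The 14 members between 1 and 10 FPKM varied more, by 16.9 to 63.7%. Among them were HOXB4 (9.58 FPKM), HOXB8 (8.05), HOXD8 (7.87), HOXC10 (4.52), HOXC8 (3.79), HOXA6 (3.48), HOXD9 (3.32), HOXC11 (2.52), HOXB2 (2.40), HOXD3 (1.84), HOXC9 (1.63), HOXD10 (1.38) and HOXD11 (1.24 FPKM). Levels are per base of each gene model, whose exons covered 582 to 3473 bases, and an incomplete model would shift its own level in every library alike. For the 6 members with several transcript models the values were not whole numbers of reads at that length. These were HOXA3, HOXA5, HOXB3, HOXB4, HOXD8 and HOXD13. The length behind their FPKM is not known, so their place in the order is less certain.

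The 8 members under 1 FPKM had means of 0.0021 to 0.691 FPKM. HOXC4 (0.691 FPKM) and HOXD4 (0.657 FPKM) still passed the filter on low values, which asked for at least 0.5 FPKM in at least 10 libraries, and 31 members were tested in all. The 6 members that were not tested were HOXB1, whose model is annotated as a pseudogene, HOXB13, HOXC12, HOXC13, HOXD12 and HOXD13, with means of up to 0.291 FPKM. HOXC13, known from hair and nail, was at 0 in 37 libraries and HOXB13, known from the prostate, in 36. The values of HOXC13 corresponded to 3 reads over all 40 libraries and those of HOXB13 to 9. A count of 0 allows up to 3 reads, which for HOXB13 is 0.0763 to 0.133 FPKM depending on the library, from counting error only. Group 13 was therefore represented by HOXA13: its paralogue HOXD13, which shares its role in the digits, had 0.291 FPKM.

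By cluster, the HOXA genes made up 52.7% of the summed FPKM of all HOX genes (mean over libraries), the HOXB genes 36.6%, the HOXC genes 7.07% and the HOXD genes 3.59%. The HOXA share ran from 48.5 to 65.5% over the 40 libraries, with its highest value in replicate 83 of the day 15 females. The HOXD share ran from 1.89 to 6.86%. In day 15 females the HOXA share was 53.7% with that library and 52.4% without it (n = 9). The HOXB share there was 36.1 and 37.2%, and the HOXD share 4.29 and 4.40%. By position, groups 1 to 3 held 12.4%, groups 4 to 8 43.999% and groups 9 to 13 43.6%. Groups 1 to 3 ran from 10.2 to 20.7%, with the highest value in replicate 83. Groups 9 to 13 ran from 35.2 to 49.1%, with the lowest value in that library. Group 9, expressed from all 4 clusters, held 18.6% over all libraries, group 7 16.0% and group 13 12.7%. Group 9 was above group 7 at day 11, with 18.7% in females and 18.3% in males against 12.96 and 13.5%, and close to it at day 15, with 18.6 ± 1.64% and 18.7 ± 0.893% (SD, n = 10 each). Without replicate 83, group 9 held 19.0 ± 0.852% in day 15 females (n = 9). The summed level was 465.6 FPKM on average and 393 to 521 FPKM over the libraries, with its lowest value in replicate 83. The HOXA3 model spans HOXA4 and HOXA5. It has exons in common with HOXA5 (315 bases) and HOXA6 (256 bases) on the same strand, so reads there cannot be assigned to one of them with certainty.

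Replicate 83 of the day 15 females was high in anterior and low in posterior HOXA genes. Among the 29 members of at least 1 FPKM it was the highest of its 10 libraries for HOXA2, HOXA3, HOXA4 and HOXA5, among others, and the lowest in 11, namely HOXA7, HOXA9, HOXA10, HOXA11, HOXA13, HOXB2, HOXB7, HOXB9, HOXC6, HOXC11 and HOXD8. HOXA2 stood at 30.0 FPKM there against 8.68 to 14.7 in the other 9 libraries, and HOXB7 at 30.0 FPKM against 57.4 to 79.3. HOXA13 stood at 40.998 FPKM against 48.1 to 65.0. Cell type markers moved in the same library. Its 8 endothelial markers summed to 479 FPKM against 798 to 929 in the others, its 6 epithelial markers to 2605 against 1715 to 2491, its 7 smooth muscle and mural markers to 2085 against 1384 to 1897, and its 6 leukocyte markers to 110.1 against 46.9 to 97.0 FPKM. Its 4 erythroid markers summed to 13965.7 FPKM against 15045.7 to 35664.5. Its 6 skeletal and cardiac muscle markers summed to 0.329 against 0.891 to 3.05 FPKM. The stromal fibroblast, neural and proliferation sums lay within the range of the others. The part of these cell types in its HOX levels was not tested.

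**Figure D2:**
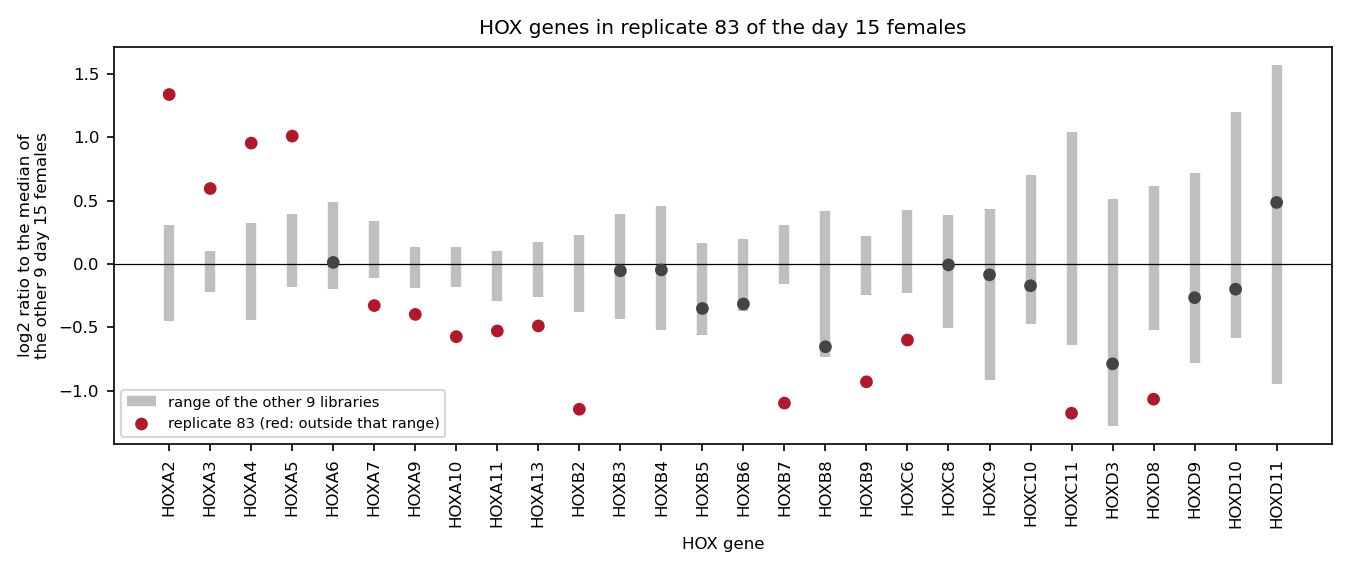
Level of 28 HOX genes of at least 1 FPKM in replicate 83 of the day 15 females, as the log2 ratio to the median of the other 9 libraries of its group (points), with the range of those 9 (grey bars). HOXA2 to HOXA5 lie above their bars, while HOXA7 to HOXA13 and HOXB7 lie below theirs.

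The first comparison asked how HOX expression changed between days 11 and 15. Averaged over the sexes, 14 of the 31 tested members (45.2%) passed the test (limma, Benjamini-Hochberg adjustment over all 15880 tested genes, adjusted p below 0.05), where 60.0% of all tested genes did. HOXA7, HOXB7 and HOXD10 rose (3 members, against 30.1% of all tested genes). Another 11 members fell, against 29.9% of all tested genes, among them HOXA2, HOXA5, HOXA13, HOXB3, HOXB4, HOXB5, HOXB6, HOXB8, HOXC6 and HOXC10. By cluster, 1 HOXA gene rose and 4 of 11 fell, 1 HOXB gene rose and 5 of 8 fell, 2 of 6 HOXC genes fell, and 1 of 6 HOXD genes rose. The median log2 fold change of the tested members was −0.05, beside 0.00 for all tested genes, and the values ran from −0.98 to 0.61. A change of at least 1 on the log2 scale, with a call, was seen in 0 members and in 8.48% of all tested genes. Fold changes are on the scale log2(scaled FPKM + 0.1), so that the change of a weakly expressed gene is understated.

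Both sexes were also compared separately. In females 8 members passed (45.5% of all tested genes did), of which 3 rose and 5 fell (22.4% and 23.1% of all tested genes). In males 11 passed (47.6% of all tested genes), of which 2 rose and 9 fell (24.2% and 23.4% of all tested genes). In both sexes 7 members passed with the same direction: HOXA7 and HOXB7 rose, and HOXB3, HOXB5, HOXB6, HOXC6 and HOXC10 fell. The share of all tested genes that passed in both sexes was not counted, so this number has no background beside it. HOXD10 passed in females only at this threshold, and HOXA5, HOXB4 and HOXB8 were among those that passed in males only, but the change of none of the 31 members differed between sexes by a test of the difference (limma interaction, 0 members at an adjusted p below 0.05 and 0 at an unadjusted p below 0.05, beside 0.0252% and 3.19% of all tested genes). Without replicate 83 the counts were 15 on average over the sexes, 10 in females and 11 in males, beside 60.4%, 45.8% and 48.4% of all genes tested without it. The added calls were HOXD8 on average and HOXA2 and HOXA5 in females. The averaged change of the tested members moved by at most 0.07 on the log2 scale.

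**Figure D3:**
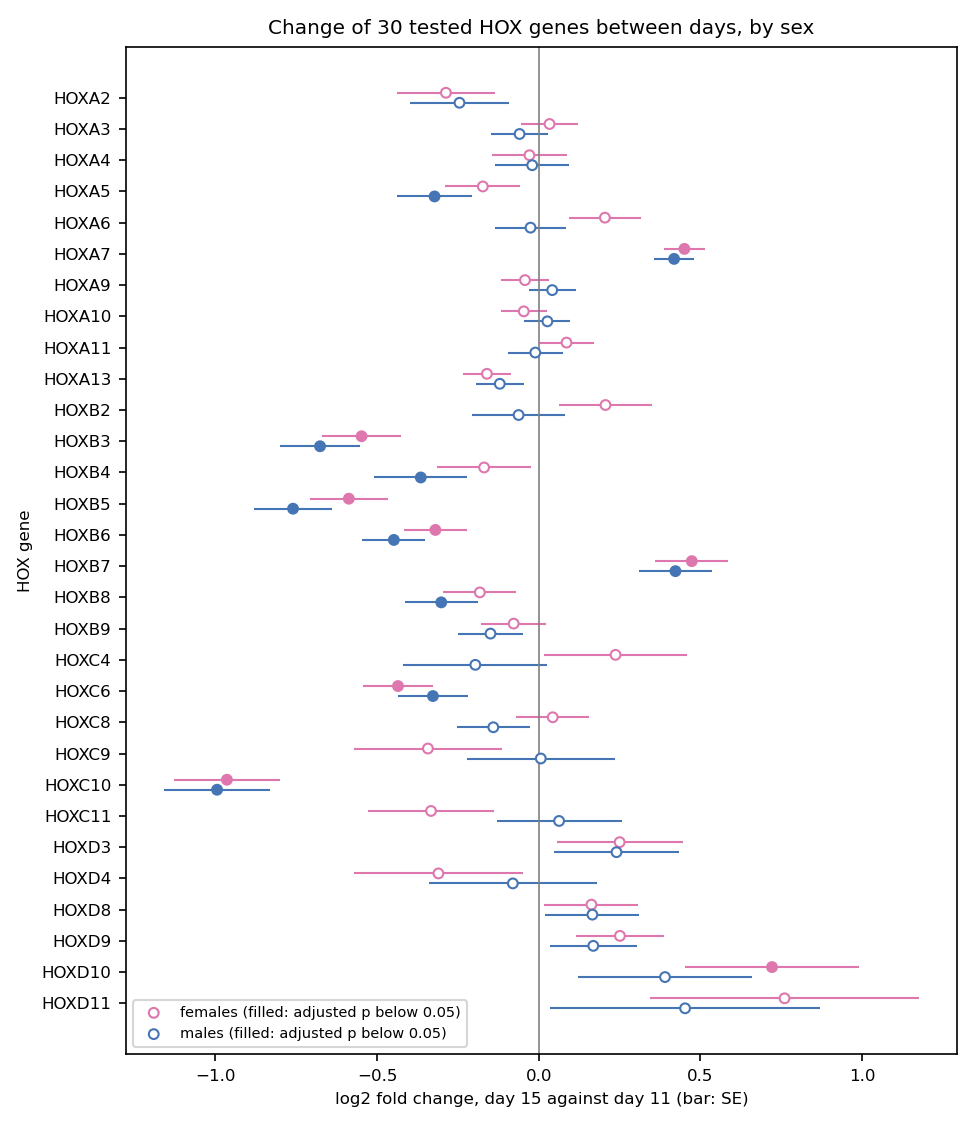
Log2 fold change from day 11 to day 15 of 30 tested HOX genes in females and in males, with the standard error as bars and filled points where the adjusted p was below 0.05. HOXA7 and HOXB7 lie to the right of 0 and HOXB3, HOXB5, HOXB6, HOXC6 and HOXC10 to the left of 0 in both sexes.

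Both members of paralogue group 7, HOXA7 and HOXB7, which are expressed at trunk levels of the body axis, were higher at day 15. HOXA7 held 14.7 to 18.5 FPKM (median 16.1) in day 11 females, 15.4 to 19.1 FPKM (median 16.5) in day 11 males, 17.3 to 27.5 FPKM (median 21.6) in day 15 females and 20.3 to 24.9 FPKM (median 21.4) in day 15 males. The ranges of the days did not overlap in males and overlapped in females, where replicate 83 was the lowest at day 15. HOXA7 was the only member whose day ranges were separate in a sex; ranges were separate in 11.4% of all tested genes in males and in 9.12% in females. The averaged log2 fold change of HOXA7 was 0.43 ± 0.04 (SE, limma adjusted p = 4.14e-11), and 0.45 without replicate 83. With all libraries it was 0.45 ± 0.06 in females and 0.42 ± 0.06 in males. Without replicate 83 the female value was 0.48 ± 0.06.

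HOXB7 held 35.9 to 58.6 FPKM (median 45.2) in day 11 females, 42.2 to 60.8 FPKM (median 47.8) in day 11 males, 30.0 to 79.3 FPKM (median 63.6) in day 15 females and 49.0 to 85.3 FPKM (median 62.4) in day 15 males. Its ranges overlapped between days in both sexes. The log2 fold change of HOXB7 was 0.45 ± 0.08 (SE, limma adjusted p = 6.43e-06) on average, 0.47 ± 0.11 in females and 0.42 ± 0.11 in males. Without replicate 83 the averaged value of HOXB7 was 0.50 ± 0.06 and its female value 0.58 ± 0.09. As a share of the summed HOX FPKM, group 7 went from 12.96 ± 1.249% to 18.6 ± 2.70% in females and from 13.5 ± 1.20% to 19.1 ± 2.32% in males (mean ± SD, n = 10 each). Without replicate 83 its share in day 15 females was 19.3 ± 1.49% (n = 9).

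HOXA6 and HOXA9, on either side of HOXA7, did not pass the test, with log2 fold changes of 0.09 ± 0.08 (SE, limma adjusted p = 0.329) and −0.00 ± 0.05 (SE, limma adjusted p = 0.995). HOXB6 and HOXB8, on either side of HOXB7, fell between the same days. Ratios within a library, which need no scaling between libraries and were added after the data had been seen, are given without a test. The ratio of HOXB7 to HOXB6 ran from 1.13 to 2.05 (median 1.48) in the 20 libraries of day 11 and from 1.55 to 4.51 (median 2.77) in the 20 of day 15. HOXA7 to HOXA9 ran from 0.364 to 0.524 (median 0.415) at day 11 and from 0.432 to 0.725 (median 0.579) at day 15. HOXA7 to HOXB7 kept a similar ratio, with medians of 0.353 and 0.344.

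**Figure D4:**
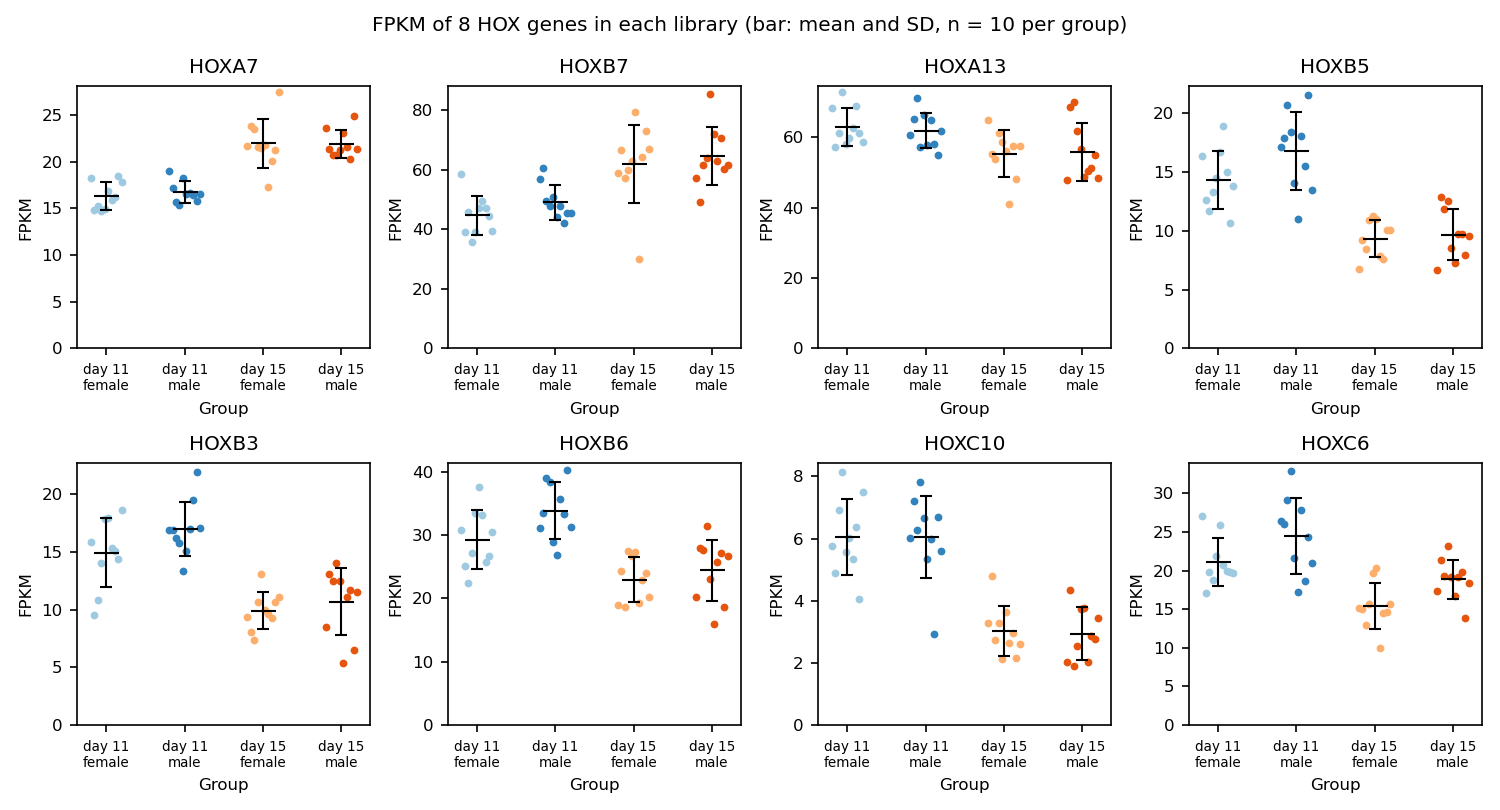
FPKM of 8 HOX genes in each library by group, with the mean and SD (bars, n = 10 per group); the axes start at 0. HOXA7 and HOXB7 are higher at day 15, HOXB5, HOXB3, HOXB6, HOXC10 and HOXC6 are lower, and HOXA13 is slightly lower with wide overlap.

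HOXC10, a gene of the lumbar region and hindlimb, had the largest change in size among the called members. HOXC10 held 4.07 to 8.14 FPKM (median 5.89) in day 11 females, 2.91 to 7.82 FPKM (median 6.14) in day 11 males, 2.14 to 4.81 FPKM (median 2.85) in day 15 females and 1.90 to 4.36 FPKM (median 2.82) in day 15 males. The lowest day 11 male, replicate 38, lay among the day 15 values, and the day 11 and day 15 ranges overlapped in both sexes. The log2 fold change of HOXC10 was −0.98 ± 0.12 (SE, limma adjusted p = 1.97e-09), and −0.98 ± 0.12 without replicate 83 (limma adjusted p = 4.07e-09). Its neighbours HOXC9 and HOXC11 did not pass the test, at −0.17 ± 0.16 (SE, limma adjusted p = 0.381) and −0.14 ± 0.14 (SE, limma adjusted p = 0.406). The ratio of HOXC10 to HOXC11 within a library had a median of 2.28 at day 11 and 1.24 at day 15.

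In the HOXB cluster HOXB3, HOXB4, HOXB5, HOXB6 and HOXB8 fell, while HOXB7 among them rose. HOXB5 held 10.7 to 18.9 FPKM (median 14.1) in day 11 females, 11.0 to 21.5 FPKM (median 17.5) in day 11 males, 6.79 to 11.2 FPKM (median 9.63) in day 15 females and 6.67 to 12.9 FPKM (median 9.63) in day 15 males. The medians fell in both sexes with overlapping ranges, and the log2 fold change of HOXB5, a gene expressed in gut and lung mesenchyme, was −0.67 ± 0.08 (SE, limma adjusted p = 7.80e-09). HOXB3 held 9.54 to 18.6 FPKM (median 15.2) in day 11 females, 13.3 to 21.9 FPKM (median 16.9) in day 11 males, 7.37 to 13.1 FPKM (median 9.76) in day 15 females and 5.38 to 14.01 FPKM (median 11.6) in day 15 males. HOXB3, like its neighbour HOXB4 known from blood progenitors, had a log2 fold change of −0.61 ± 0.09 (SE, limma adjusted p = 1.09e-07), again with overlapping ranges. HOXB6 held 22.4 to 37.5 FPKM (median 28.9) in day 11 females, 26.8 to 40.3 FPKM (median 33.4) in day 11 males, 18.6 to 27.5 FPKM (median 23.4) in day 15 females and 15.9 to 31.5 FPKM (median 26.2) in day 15 males. HOXB6, a gene of the trunk and lateral plate, fell by 0.38 ± 0.07 (SE, limma adjusted p = 7.28e-06) on the log2 scale. HOXB4 held 7.23 to 15.7 FPKM (median 9.03) in day 11 females, 6.83 to 18.3 FPKM (median 11.4) in day 11 males, 5.95 to 11.8 FPKM (median 8.42) in day 15 females and 5.64 to 12.2 FPKM (median 7.94) in day 15 males. For HOXB4 the log2 fold change was −0.27 ± 0.10 (SE, limma adjusted p = 0.0227), and for HOXB8 it was −0.24 ± 0.08 (SE, limma adjusted p = 0.00869). Without replicate 83 the log2 fold changes were −0.67 for HOXB5, −0.62 for HOXB3, −0.38 for HOXB6, −0.27 for HOXB4 and −0.21 for HOXB8, all called. The outermost tested genes of the cluster, HOXB2 (0.07 ± 0.10 SE, limma adjusted p = 0.556) and HOXB9 (−0.11 ± 0.07 SE, limma adjusted p = 0.169), did not pass.

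HOXC6 held 17.1 to 27.1 FPKM (median 19.9) in day 11 females, 17.2 to 32.9 FPKM (median 25.2) in day 11 males, 10.002 to 20.4 FPKM (median 15.1) in day 15 females and 13.8 to 23.2 FPKM (median 19.2) in day 15 males. Both sexes were lower at day 15 with overlapping ranges, and the averaged log2 fold change of HOXC6 was −0.38 ± 0.08 (SE, limma adjusted p = 4.04e-05), and −0.35 ± 0.07 without replicate 83 (limma adjusted p = 6.50e-05). The genes HOXC4 and HOXC8 on either side of it gave 0.02 ± 0.16 (SE, limma adjusted p = 0.920) and −0.05 ± 0.08 (SE, limma adjusted p = 0.618) and did not pass. The HOXC share of the summed HOX FPKM was 7.73 ± 0.698% and 8.02 ± 1.22% at day 11 (females and males, mean ± SD, n = 10 each) and 5.92 ± 0.622% and 6.62 ± 0.396% at day 15. In day 15 females it was 6.02 ± 0.552% without replicate 83 (n = 9).

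In the HOXA cluster HOXA2 and HOXA5 fell on the anterior side and HOXA13 at the posterior end. HOXA2 held 10.2 to 25.4 FPKM (median 16.2) in day 11 females, 12.3 to 22.2 FPKM (median 15.9) in day 11 males, 8.68 to 30.0 FPKM (median 11.99) in day 15 females and 11.6 to 15.3 FPKM (median 13.5) in day 15 males. The log2 fold change of HOXA2 was −0.27 ± 0.11 (SE, limma adjusted p = 0.0305) with replicate 83 as the highest library, and −0.34 (limma adjusted p = 0.000769) without it. HOXA5 held 9.79 to 16.6 FPKM (median 13.1) in day 11 females, 7.93 to 16.0 FPKM (median 12.6) in day 11 males, 9.003 to 20.6 FPKM (median 10.3) in day 15 females and 7.93 to 11.3 FPKM (median 9.70) in day 15 males. HOXA5 fell by 0.25 ± 0.08 (SE, limma adjusted p = 0.00896) on the log2 scale; in females its change was −0.17 (limma adjusted p = 0.230) and −0.28 without replicate 83 (limma adjusted p = 0.0174). The ranges of both genes overlapped widely between days.

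At the posterior end, HOXA13 held 57.2 to 73.0 FPKM (median 61.2) in day 11 females, 55.0 to 71.3 FPKM (median 61.3) in day 11 males, 40.998 to 65.0 FPKM (median 56.9) in day 15 females and 47.9 to 69.98 FPKM (median 53.1) in day 15 males. The log2 fold change of HOXA13 was −0.14 ± 0.05 (SE, limma adjusted p = 0.0187), the smallest among the called members, and −0.12 ± 0.05 without replicate 83 (limma adjusted p = 0.0312). It was −0.05 (limma adjusted p = 0.507) when day 11 was taken from embryos numbered 22 to 48 only. HOXA9, HOXA10 and HOXA11 had log2 fold changes of −0.00, −0.01 and 0.04, with limma adjusted p of at least 0.612, and HOXA3 and HOXA4 had −0.01 and −0.02. The standard errors of these 5 changes were 0.05 to 0.08. Over the settings of the analysis the change of HOXA9 ran from −0.13 to 0.11, with limma adjusted p of at least 0.0766.

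In the HOXD cluster HOXD10, a gene of lumbar motor neurons and of the limb, rose at low levels. HOXD10 held 0.400 to 2.27 FPKM (median 1.11) in day 11 females, 0.284 to 1.57 FPKM (median 0.993) in day 11 males, 1.13 to 3.89 FPKM (median 1.68) in day 15 females and 0.546 to 3.35 FPKM (median 1.19) in day 15 males. Its log2 fold change was 0.56 ± 0.19 (SE, limma adjusted p = 0.0114) on average, and 0.57 ± 0.20 without replicate 83 (limma adjusted p = 0.0120). The values of HOXD3, HOXD8, HOXD9 and HOXD11 were 0.25, 0.16, 0.21 and 0.61, and did not pass (adjusted p 0.0563 to 0.167, limma); HOXD4 had −0.20. The median of the 6 tested HOXD genes was 0.23, beside −0.15 in HOXC, −0.25 in HOXB and −0.01 in HOXA.

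Markers of the cell types in the membrane changed between the same days, when 30.1% of all tested genes rose and 29.9% fell. All 6 measured epithelial markers rose, and their sum ran from 912 to 1491 FPKM at day 11 and 1483 to 2737 at day 15. Of the 7 smooth muscle and mural markers 6 rose and 0 fell, with sums of 509 to 1278 FPKM at day 11 and 1083 to 2085 at day 15. That highest sum was replicate 83 of the females, beside 1384 to 1897 FPKM in the other day 15 females. Of the 8 endothelial markers 5 rose and 2 fell, with sums of 495 to 773 FPKM at day 11 and 479 to 949 at day 15. The lowest day 15 sum was again replicate 83. The other day 15 females had 798 to 929 FPKM and the day 15 males 658 to 949 FPKM. Of the 11 stromal fibroblast markers 2 rose and 6 fell, with sums of 5723 to 10091 FPKM at day 11 and 5770 to 10171 at day 15. Of the 6 leukocyte markers 5 fell, with sums of 72.2 to 152 FPKM at day 11 and 46.9 to 112 at day 15, and all 3 measured proliferation markers fell. Of the 4 tested neural markers 0 rose and 2 fell, and of the 3 tested erythroid markers 0 rose and 0 fell. Of the 2 tested skeletal and cardiac muscle markers 1 fell. No marker of these lists was at 0 in all libraries. Their part in the HOX changes was not tested, and in whole membranes fewer cells of a type and less RNA per cell cannot be told apart.

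The second comparison asked whether HOX expression differed between male and female membranes. Of the 31 tested members 0 passed on average over the days, 0 at day 11 and 0 at day 15 (limma, adjusted p below 0.05), where 4.87%, 3.51% and 3.48% of all tested genes did. At an unadjusted p below 0.05 the numbers were 1 (HOXC6), 1 (HOXB6) and 2 (HOXC6 and HOXC8), where 13.2%, 9.48% and 10.2% of all tested genes were below it. HOXC6 came nearest, with a male minus female log2 difference of 0.24 ± 0.08 (SE, limma adjusted p = 0.0531) averaged over the days and 0.30 ± 0.11 (SE, limma adjusted p = 0.1695) at day 15. Without replicate 83 these were 0.22 ± 0.07 (SE, limma adjusted p = 0.0933) and 0.24 ± 0.10 (SE, limma adjusted p = 0.416). Its medians were 19.9 FPKM in females and 25.2 in males at day 11, and 15.1 and 19.2 at day 15, with overlapping ranges. The adjusted p of HOXC6 ran from 0.0208 to 0.617 over 12 settings of the analysis (limma) and was below 0.05 in 3 of them. Over the 31 members the averaged sex differences ran from −0.59 in HOXD11, a low gene, to 0.24 in HOXC6, with a median of −0.01 beside −0.01 for all tested genes.

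Within day 11, some HOX genes were lower after scaling in embryos with higher numbers, a label whose meaning the sources do not give. Scaling factors were 0.908 to 0.998 in the 9 libraries numbered 2 to 20 and 1.01 to 1.08 in the 11 numbered 22 to 48. The part of scaling in the changes with number was not tested. HOXA9, HOXA13, HOXB7 and HOXC6 fell with embryo number (4 of 31 members, limma, adjusted p below 0.05) and 0 rose, where 33.3% of all tested genes changed in either direction. Within day 15, 0 of 31 members changed with the number, as did 0 of all tested genes (limma). At an unadjusted p below 0.05 these were 2 members and 991 genes, or 6.24%. Per standard deviation of the number, the log2 level at day 11 fell by 0.14 for HOXA9 (limma adjusted p = 0.000218), 0.13 for HOXB7 (limma adjusted p = 0.00806), 0.14 for HOXC6 (limma adjusted p = 0.0326) and 0.08 for HOXA13 (limma adjusted p = 0.0331). The day comparison was therefore repeated with the 9 day 11 libraries numbered 2 to 20 and with the 11 numbered 22 to 48. HOXA7, HOXB3, HOXB5, HOXB6, HOXB7, HOXC6 and HOXC10 passed the averaged test in both and in each of the 12 settings tried. How many of all tested genes did so was not counted.

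Apart from the day and sex differences, some HOX genes varied together from embryo to embryo and others did not. Correlations are Pearson's r of log2 values after subtracting each group's mean, over the 40 libraries, and are descriptions: all points of a pair share their library, its scaling and its mix of cells. Between members of the same cluster (103 pairs among the 29 members of at least 1 FPKM) the median r was 0.211, and 0.124 without replicate 83. Between members of different clusters it was 0.0652, with 178 of 303 pairs positive, and 0.0572 without replicate 83. Within HOXA, 27 of 55 pairs were positive, with a median r of −0.0575 and of 0.00431 without replicate 83. Within HOXB the median r was 0.293 over 28 pairs (0.189 without it) and within HOXC 0.276 over 10 pairs (0.252). Within HOXD r was positive in all 10 pairs, from 0.104 to 0.574 (median r 0.429, and 0.446 without replicate 83).

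The posterior genes HOXA9, HOXA10, HOXA11 and HOXA13 had a median r of 0.556 among themselves (0.505 without replicate 83). Against the HOXA genes of groups 1 to 3 it was −0.387, with 0 of 12 pairs positive (−0.286 without that library). HOXA3 and HOXA4 varied together (r 0.757, and 0.634 without it), while HOXA6 and HOXA7, which lie next to each other, varied oppositely (r −0.548, and −0.572 without it). HOXB5 and HOXB6 had an r of 0.815 (0.813 without replicate 83), the highest of all pairs, and HOXB3 and HOXB6 0.713 (0.722). Across clusters, HOXC6 varied with HOXB5 (r 0.673, and 0.689) and with HOXB6 (r 0.672, and 0.677).

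**Figure D5:**
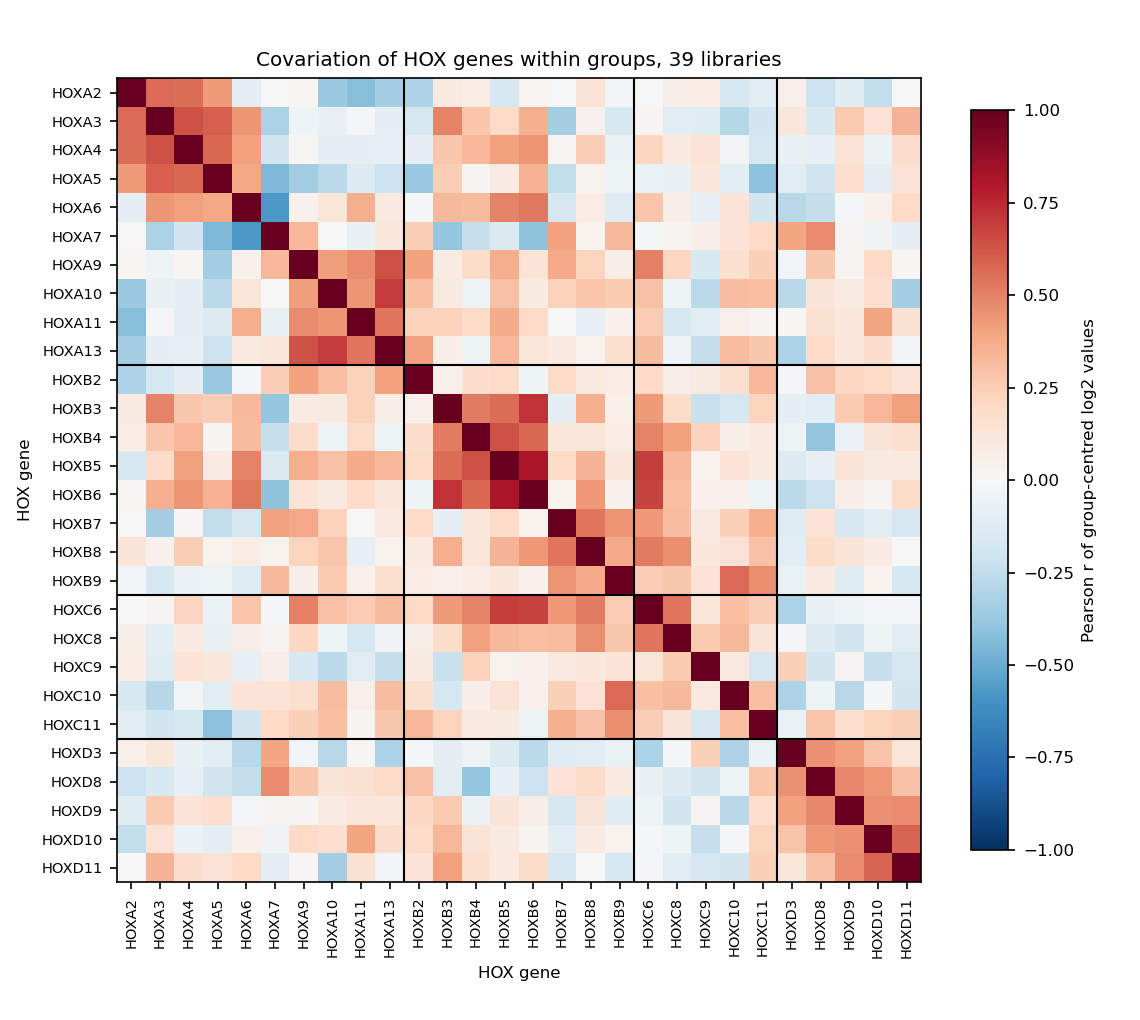
Pearson r between 28 HOX genes of at least 1 FPKM, from log2 values centred on each group's mean, in 39 libraries without replicate 83 of the day 15 females; black lines separate the clusters. Blocks of positive r lie at HOXA2 to HOXA5, at HOXA9 to HOXA13, at HOXB3 to HOXB6 and within HOXD.

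The same centred values were set beside the marker lists, each as the mean log2 level of its genes. HOXB7 and HOXB9 followed the endothelial markers, with r of 0.718 and 0.713 (0.507 and 0.541 without replicate 83). HOXB5 followed the stromal markers (r 0.617, and 0.625 without that library). HOXA3 followed the smooth muscle and mural markers (r 0.614, and 0.521 without it). HOXC6 was low where epithelial markers were high (r −0.621, and −0.588 without replicate 83). HOXA9, HOXA11, HOXA13 and HOXB5 were also low there. So were most members of at least 1 FPKM, with r below 0, among them HOXD10 (−0.537, and −0.540 without replicate 83) and HOXB3 (−0.505, and −0.528). HOXA2 and HOXA5 were not (r 0.441 and 0.306, and 0.379 and 0.200 without it). These are examples picked from all members of at least 1 FPKM and all marker lists. For HOXA7 the r was 0.400 with the endothelial and 0.0106 with the epithelial list (0.245 and 0.104 without replicate 83).

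Among all tested genes with a symbol, the genes most like the highest member of each cluster were taken by the same r over 40 libraries. HOXB7 was most like SMAD6, an inhibitor of BMP signalling (r 0.836), EGFL7, an endothelial secreted factor (0.832), ACVRL1, an endothelial receptor of the BMP family (0.801), the kinase gene FGR (0.796) and the adhesion receptor gene ADGRG1 (0.795). Without replicate 83, FGR, EGFL7 and SMAD6 were still among the top 5, at 0.778, 0.752 and 0.746. HOXA13 was most like HOXA10 of the same cluster (0.751), then PLPP3 (0.738), TXNDC5 (0.734), RGS7BP (0.713) and TMEM263 (0.712). Without replicate 83, TXNDC5 led (0.756), TMEM263 (0.7502) and PLPP3 (0.706) were also in its top 5, and HOXA10 and RGS7BP were not. HOXC6 was most like ZNF362 (0.749), SLTM (0.739), PNN (0.728) and, lower in the list, WISP1 (0.676). Without replicate 83, WISP1 was not in the top 5, which held ZNF362 (0.714), SLTM (0.696), HOXB5 (0.689), PNN (0.687) and HOXB6 (0.677). HOXD8 had the lowest values, with AOPEP at 0.659, PPP1R17 at 0.655, KLHL4 at 0.649, RASSF9 at 0.639 and ANGPT2 at 0.619, and none of these 5 was in its top 5 without replicate 83.

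Genes around and between the HOX genes were listed by position. Beside the HOXA cluster, on the side of HOXA13, lay EVX1, an even-skipped homeobox gene whose first base is 32725 bases from the cluster's end (32714893 to 32718158 on chromosome 2, plus strand). EVX1 averaged 39.02 ± 5.82 FPKM in day 11 females, 40.98 ± 6.52 in day 11 males, 21.8 ± 4.34 in day 15 females and 23.5 ± 6.23 in day 15 males (SD, n = 10 each). It fell by 0.80 ± 0.09 (SE, limma adjusted p = 2.38e-10) on the log2 scale, beside −0.14 for HOXA13. Its paralogue EVX2, in the same place beside HOXD13, had 0.186 FPKM and was not tested. On the other flank of HOXA, SKAP2 (33.8 FPKM, log2 fold change 0.03) and SNX10 (5.70 FPKM, −0.02) did not pass, and neither did HIBADH beyond EVX1 (40.2 FPKM, 0.02).

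Beside the HOXB cluster, UBE2Z (0.15 ± 0.05 SE, limma adjusted p = 0.0149), ATP5MC1 (0.17 ± 0.07 SE, limma adjusted p = 0.0454) and SNX11 (0.27 ± 0.06 SE, limma adjusted p = 0.000176) rose, and SKAP1 was not tested. Beside HOXC, CBX5, the gene of a heterochromatin protein, fell by 1.22 ± 0.07 (SE, limma adjusted p = 1.18e-17) and SMUG1 did not pass (−0.08 ± 0.04 SE, limma adjusted p = 0.107). Beside HOXD, MTX2 (−0.15 ± 0.05 SE, limma adjusted p = 0.0145), HNRNPA3 (−0.47 ± 0.04 SE, limma adjusted p = 4.72e-14) and LNPK (−0.25 ± 0.05 SE, limma adjusted p = 5.67e-05) fell. Short models lay between the HOX genes as well. A pair of unnamed RNA models between HOXA11 and HOXA13, ENSGALG00000027148 and ENSGALG00000028875, rose by 0.82 ± 0.18 (SE, limma adjusted p = 0.000114) and 0.58 ± 0.16 (SE, limma adjusted p = 0.00176) on the log2 scale. A further model in that interval, ENSGALG00000026579, did not pass (−0.07 ± 0.19 SE, limma adjusted p = 0.772), and ENSGALG00000026247, in the anterior part of the cluster, fell by 0.80 ± 0.20 (SE, limma adjusted p = 0.000587). All 4 of these RNA models stand on the plus strand, opposite to the HOXA genes. The strand setting of the counting is not given in the sources used here. The unnamed protein-coding ENSGALG00000030416 between HOXC6 and HOXC4 fell by 0.35 ± 0.11 (SE, limma adjusted p = 0.00459). The hairpin model gga-mir-196-4 between HOXA9 and HOXA10 was listed at 24.6 FPKM with no call (log2 fold change 0.21 ± 0.12 SE, limma adjusted p = 0.122), which is no measure of the mature miRNA.

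Partners and regulators of HOX genes were counted in lists, beside the 60.0% of all tested genes that passed. TALE homeodomain proteins bind DNA together with HOX proteins, and of their 7 tested genes 0 rose and 4 fell. MEIS2 averaged 35.1 and 34.1 FPKM at day 11 (females and males) and 25.2 and 22.8 at day 15, a log2 fold change of −0.50 ± 0.05 (SE, limma adjusted p = 5.64e-11). PKNOX2 had −0.32 ± 0.07 (SE, limma adjusted p = 5.31e-05), PBX4 −0.22 ± 0.05 (SE, limma adjusted p = 0.000218) and PBX3 −0.18 ± 0.04 (SE, limma adjusted p = 0.000795). MEIS1 (45.6 FPKM) did not pass, at −0.09 (limma adjusted p = 0.0817). Without replicate 83 it passed, at −0.10 ± 0.04 (SE, limma adjusted p = 0.0434), and 6 genes of the list fell. The median of the list was −0.18. Of the CDX, ParaHox and EVX genes EVX1 alone was tested; CDX2, a gut factor that switches on HOX genes, had 0.215 FPKM.

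Polycomb proteins keep HOX genes silent and Trithorax proteins keep them active. Of 26 tested Polycomb genes 8 rose and 11 fell, with a median of −0.04. EZH2, a methyltransferase of the complex that marks histone H3 but not the only one in the list, fell by 0.77 ± 0.04 (SE, limma adjusted p = 2.10e-19). Its partner PHF19 fell by 0.77 ± 0.07 (SE, limma adjusted p = 6.66e-12). CBX2, a reader of that mark, fell by 0.76 ± 0.09 (SE, limma adjusted p = 5.08e-10), whereas PCGF5 rose by 0.83 ± 0.13 (SE, limma adjusted p = 4.68e-07). Of 8 tested Trithorax-related genes 3 rose and 1 fell (median 0.04). DOT1L rose by 0.59 ± 0.08 (SE, limma adjusted p = 4.14e-08), KMT2C by 0.35 ± 0.09 (SE, limma adjusted p = 0.000980) and ASH1L by 0.35 ± 0.07 (SE, limma adjusted p = 1.99e-05), and PSIP1 fell by 0.33 ± 0.04 (SE, limma adjusted p = 2.07e-09).

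Retinoic acid switches on anterior HOX genes in the embryo. Of its 14 tested pathway genes 6 rose and 7 fell (median −0.22). The retinol uptake receptor STRA6 rose by 1.23 ± 0.18 (SE, limma adjusted p = 1.86e-07), while the nuclear receptor gene RXRG fell by 1.71 ± 0.25 (SE, limma adjusted p = 2.37e-07), ALDH1A3, which makes retinoic acid, by 0.95 ± 0.13 (SE, limma adjusted p = 8.53e-08) and CYP26A1, which breaks it down, by 0.91 ± 0.22 (SE, limma adjusted p = 0.000443). Of 28 tested transcription factors of posterior and lateral mesoderm, 3 rose and 19 fell (median −0.30). PRRX2 rose by 1.98 ± 0.16 (SE, limma adjusted p = 7.76e-14). HAND1, a factor of extraembryonic and cardiac mesoderm, fell by 0.99 ± 0.07 (SE, limma adjusted p = 9.76e-15) and TWIST2 by 0.91 ± 0.08 (SE, limma adjusted p = 2.36e-12). HAND1 and TWIST2 are also in the list of stromal markers. Without replicate 83, 10 Polycomb and 18 mesoderm genes fell, and the counts of the Trithorax-related and retinoic acid lists were as given.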

How the data were processed

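RNA from whole chorioallantoic membranes was sequenced as NEBNext Ultra libraries, per the labels' protocols. HISAT2, HTSeq and the build GRCg6a are named in the submitters' processing notes; their versions, their roles and the strand setting are nowhere stated in the sources used. The authors deposited 1 table of 26152 gene models whose name announces raw counts. The deposited values behave as FPKM, scaled by gene length and library total: in 15718 single-transcript genes, 100% of the values worth under 200 reads were whole multiples, within 0.01, of 1 read. All 40 columns matched a library by name, 2 of them by the last digits of its number, and 0 were left over.

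Members and coordinates came from the deposited annotation. FPKM were scaled between libraries by a trimmed mean of log ratios (30% of ratios and 5% of levels trimmed; factors 0.908 to 1.08), transformed as log2(scaled FPKM + 0.1), filtered at 0.5 FPKM in at least 10 libraries (15880 genes kept, 10272 removed) and analysed in R 4.3.3 with limma 3.58.1 and statmod 1.5.0 (intensity trend, robust), all 4 groups in 1 model. The procedure was tested on simulated data. Summaries used Python 3.11.15, numpy 2.4.6, pandas 2.3.3 and matplotlib 3.10.9. The 11 alternatives changed the pseudocount (0.5 or 1), filter, scaling, moderation, libraries and covariate.

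The members, gene lists and tests were chosen with earlier results of these data known. Full ranges are given for 11 of the 12 called members with the largest averaged change, and also for HOXA13, the highest member, added after its values were seen. Lists of other genes are described by at most 4 of their called genes, those that moved most; further ones were named after their values were seen. 1 HOX gene and some other list genes are not reported here by name or in figures, but stay in the counts and medians. No sequences are shown.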

Additional observations from a re-analysis of the deposited data

Results flagged for a closer look

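In 112 groups of 10 libraries (28 HOX genes of at least 1 FPKM in 4 groups), the highest or lowest library lay far from its nearest neighbour, by Dixon's criterion, in 15 groups, or 13.4%. Chance alone marks about 1 in 20 groups where values are independent and normally distributed. That was not checked for these FPKM, and the genes share their libraries, so the rate here is not known. Of the 15 groups, 8 were replicate 83 of the day 15 females, so they are not independent of each other. That library was highest for HOXA2 (30.0 FPKM, next 14.7), HOXA3 (31.4, next 21.5), HOXA4 (42.8, next 27.6) and HOXA5 (20.6, next 13.4). It was lowest for HOXA10 (24.7, next 32.3), HOXB2 (1.20, next 2.14), HOXB7 (30.0, next 57.4) and HOXB9 (22.4 FPKM, next 35.998).

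The other 7 came from 7 different libraries. Among day 11 females, HOXB9 was lowest in replicate 6 (28.0 FPKM, next 41.4) and HOXD11 in replicate 11, where it was listed at 0 (next 0.674). Among day 11 males, HOXC10 was lowest in replicate 38 (2.91, next 5.33) and HOXD10 in replicate 14 (0.284, next 0.69). Among day 15 females, HOXA6 was highest in replicate 70 (5.11, next 4.15). Among day 15 males, HOXC11 was highest in replicate 76 (4.99, next 2.96) and HOXC6 lowest in replicate 98 (13.8 FPKM, next 17.4).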

How the results depend on the processing

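The settings tried were 11 beside the reported one. The number of HOX genes called between days in males was 11 as reported, where 47.6% of all tested genes were called. It was 7 with the day 11 embryos numbered 22 to 48 only, for which the share of all tested genes is not given here. The number called between sexes averaged over the days, 0 as reported, was 1 (HOXC6, higher in males) without scaling. Of all 15880 tested genes, 543 were then called higher and 193 lower in males. It was also 1 (HOXC6) with the day 11 embryos numbered 2 to 20 only and with embryo number within day as a covariate. The counts over all genes in those fits are not given here. At day 15 it was 1 without a filter (HOXD12, a log2 difference of −0.77, limma adjusted p = 0.0422). Of 24144 genes, 413 were then called higher and 180 lower in males. HOXD12 averaged 0.058 FPKM, was at 0 in 14 libraries and rested on 139 reads in all. The cause of these moves was not tested. Of the 14 averaged day calls, 7 held in every setting, and the share of all tested genes that did so was not counted. HOXA5 and HOXB4 were among those lost with embryos 2 to 20. With embryos 22 to 48, HOXA2, HOXA13, HOXB8 and HOXD10 were lost. Fewer libraries entered both of these fits, and why these calls were lost was not tested. HOXD8 was called without replicate 83 (0.21, limma adjusted p = 0.0441) and HOXD9 with the covariate (limma adjusted p = 0.0489). Among the 7 genes called in both sexes, HOXB7 was not called in males and HOXB3 and HOXB6 were not called in females with embryos 2 to 20, nor HOXC6 in males with embryos 22 to 48. The stricter filter left 29 of the 31 members to test. Correlations without replicate 83 and ratios within a library were added after the data had been seen. No paired analysis was possible because the 40 embryos carry 40 different numbers, none shared between groups. Depth limits the low members most: HOXC13 and HOXB13 rest on 3 and 9 reads in all.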
